A study of Homo sapiens with 6 samples.

Results

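The genes for the SR splicing factors and the heterogeneous nuclear ribonucleoproteins (hnRNPs) were described in A549 cells after knockdown of BAP18. A549 is an established line of human lung adenocarcinoma, and BAP18 is a chromatin-associated protein whose gene is listed as C17orf49. Members were all genes of the deposited count table named SRSF or HNRNP with their letters and digits, and names of pseudogenes were dropped. This gave 37 members of 35474 genes, 12 named SRSF (here SR genes) and 25 named HNRNP (hnRNP genes). In the siBAP18 group, 3 cultures received siRNA against BAP18, and in the siCtrl group 3 cultures received a non-targeting siRNA, with RNA collected after 48 h. The labels call the 3 cultures of a group biological replicates. All cultures were transfected, no untransfected cells were included, and the sources do not state which of the BAP18 siRNAs of the study was used.

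SR proteins bind exons through RNA recognition motifs, and their arginine- and serine-rich tails recruit the splicing machinery to nearby splice sites. Many hnRNPs coat the nascent transcript and often counteract SR proteins at the same exons, so the balance between both families helps to set which exons are kept. Many of these genes also limit their own output by splicing that brings a premature stop codon into the transcript, which is then removed by nonsense-mediated decay (NMD).

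The targeted gene was reduced in every siBAP18 library. C17orf49 had 743, 751 and 705 counts in the siCtrl replicates and 120, 137 and 108 in the siBAP18 replicates, a log2 fold change of −2.65 (standard error 0.111). The adjusted p was 7.31e-16 in the quasi-likelihood fit of edgeR, adjusted by Benjamini-Hochberg over the 20776 genes tested. Libraries held between 42094524 and 56548620 counts. The 10 listed A549 epithelial and line genes were all above 1 RPKM in every library. They moved with the knockdown, since 9 of the 10 were lower and their summed level was 6816 to 7025 RPKM in siCtrl and 4767 to 5243 RPKM in siBAP18 libraries. CDH1, the epithelial cadherin, had a log2 fold change of −1.32 and AKR1B10, a reductase of carbonyls, of −0.96, while KRT19, at 0.15, did not pass. The part of this in the results was not tested. The listed genes of leukocytes, endothelium and fibroblasts summed to at most 1.35 RPKM per list. The siBAP18 libraries differed more among themselves than the siCtrl libraries did, by a chi-square over genes of 10.1 to 23.3 per degree of freedom between pairs, against 3.94 to 4.56. Mitochondrial genes took 6.86% to 7.43% of counts in siCtrl and 5.27% to 6.14% in siBAP18 libraries, and the part of this in the results was not tested.

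Of the 37 members, 35 had enough counts to be tested. In siBAP18 cells 16 of them were lower, 7 were higher and 12 did not pass an adjusted p of 0.05. Over all genes tested, 49.6% passed, 25.1% lower and 24.5% higher. The share of members that were higher was near that of all genes, and the share that were lower stood above it. The members were more abundant, with a median average log2 CPM (counts relative to the library total) of 7.95, beside 2.80 over all genes tested. Genes of matched abundance were not compared, and the part of abundance in these shares was not tested. By family, 7 SR genes were lower, 2 were higher and 3 did not pass, and 9 hnRNP genes were lower, 5 were higher and 9 did not pass. Without siBAP18 replicate 1, or without any one of the siCtrl replicates, 1 SR gene was higher, and without siBAP18 replicate 1, 3 hnRNP genes were higher. No member passed the rule of an adjusted p under 0.05 with an absolute log2 fold change over 1, which 8.46% of all genes did, 3.74% lower and 4.72% higher. The median log2 fold change was −0.13 over the members, −0.23 over the SR genes and −0.06 over the hnRNP genes, beside 0.0010 over all genes tested. The median absolute log2 fold change was 0.263 over the members and 0.327 over all genes. In bulk RNA, fewer cells of one state and less RNA per cell cannot be told apart.

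**Figure D1:**
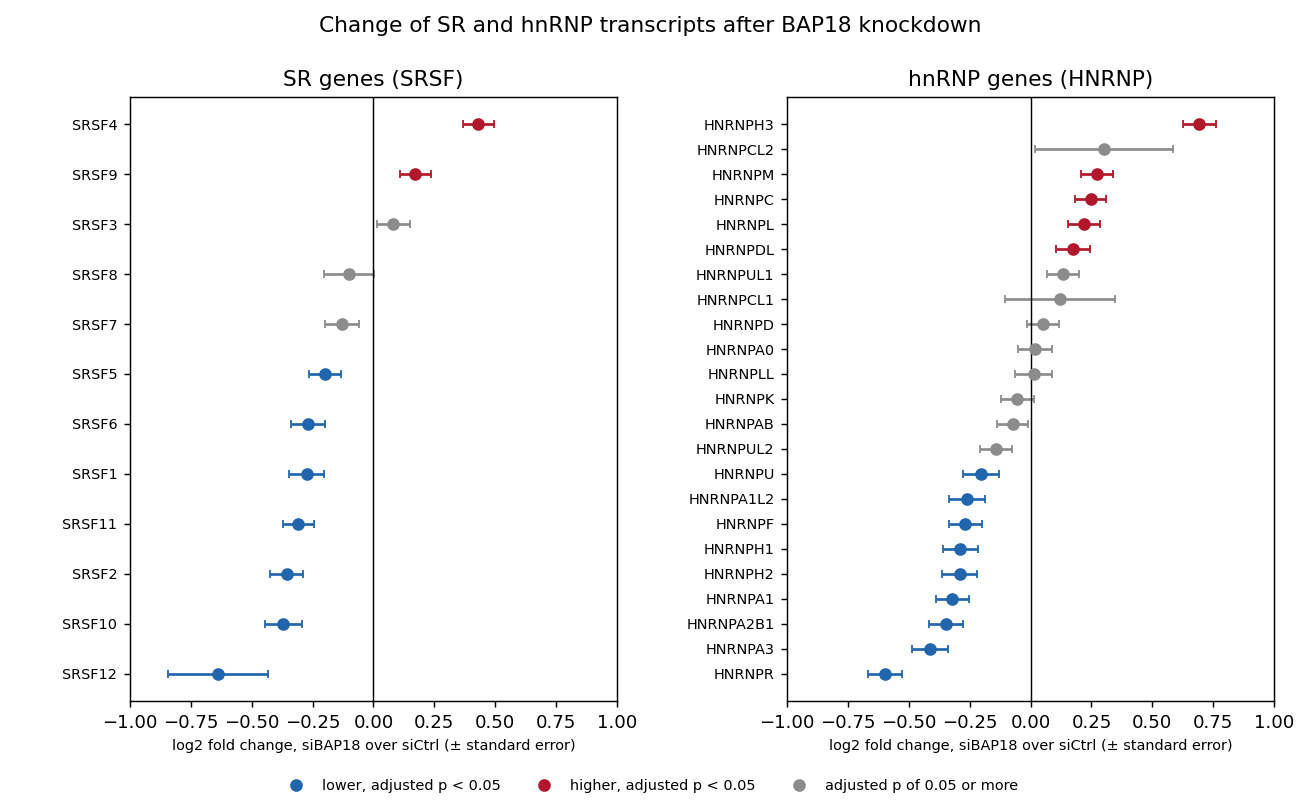
Log2 fold change of siBAP18 over siCtrl with its standard error for the 12 SR genes and 23 hnRNP genes tested (horizontal axis), sorted within each family (vertical axis), with colors for the edgeR call. Both families hold members on either side of 0, from −0.64 for SRSF12 to 0.69 for HNRNPH3.

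Among the SR genes, SRSF12, SRSF10, SRSF2 and SRSF11 showed the largest falls. SRSF12, which can counteract other SR proteins, was the least abundant SR gene and had 1.80, 1.51 and 2.14 CPM (counts relative to the library total after TMM scaling) in the siCtrl libraries and 1.18, 1.06 and 1.28 CPM in the siBAP18 libraries. All 3 siBAP18 values lay below the siCtrl values, with a log2 fold change of −0.64 (standard error 0.206, edgeR adjusted p = 0.0122). These values rest on 52 to 100 counts per library, and without siCtrl replicate 3 the edgeR adjusted p was 0.0814. SRSF10, known as a splicing repressor when it loses its phosphates, fell by 0.37 (edgeR adjusted p = 2.20e-04), and SRSF11, which contacts the U2AF complex, fell by 0.31 (edgeR adjusted p = 2.59e-04). In both, the groups did not overlap.

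SRSF2, a classical SR protein that activates exons, had 39.4, 40.8 and 40.5 CPM in the siCtrl libraries and 33.1, 30.1 and 31.0 CPM in the siBAP18 libraries. Every siBAP18 library was below every siCtrl library, and the log2 fold change was −0.36 (standard error 0.0695, edgeR adjusted p = 1.27e-04). Of its exon bases, 36.7% are shared with MFSD11 on the opposite strand. MFSD11 itself had a log2 fold change of −0.14 (edgeR adjusted p = 0.0991), and its part in the value of SRSF2 was not tested.

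SRSF1, the founding member of the family, was the most abundant SR gene per length, at 57.3 ± 2.71 RPKM (SD, n = 3) in siCtrl cells. It had 185, 199 and 190 CPM in the siCtrl libraries and 159, 172 and 144 CPM in the siBAP18 libraries. The groups did not overlap, and siBAP18 replicate 3 was the lowest of the 6. The log2 fold change was −0.27 (standard error 0.0706, edgeR adjusted p = 0.00214), and the call was lost in 1 of 17 alternatives. Of the exon bases of SRSF1, 23.1% are shared with RP11-159D12.5 on the same strand or RP11-159D12.6 on the opposite strand. The part of these genes in its values was not tested. SRSF6 fell by 0.27 and SRSF5 by 0.20, both close relatives of SRSF4. The call of SRSF5 was lost without any one of the siCtrl libraries, with an edgeR adjusted p of up to 0.0618.

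SRSF4 moved the other way. Its levels were 273, 280 and 288 CPM in the siCtrl libraries and 363, 392 and 378 CPM in the siBAP18 libraries, so every siBAP18 library stood above the highest siCtrl library. The rise was 1.35-fold, a log2 fold change of 0.43 (standard error 0.0652, edgeR adjusted p = 4.86e-06). The counts of SRSF4 relative to SRSF6 in the same library, a ratio that no scaling changes, went from 2.03 ± 0.0809 to 3.32 ± 0.348 (SD, n = 3). This pair was chosen after its values were seen and is given as a description. SRSF9, a relative of SRSF1, rose by 0.17 (edgeR adjusted p = 0.0296), but 46.2% of its exon bases lie opposite GATC, and leaving out any siCtrl library or siBAP18 replicate 1 ended the call, with an edgeR adjusted p of up to 0.157. SRSF7, SRSF8 and SRSF3 did not pass, with log2 fold changes of −0.13, −0.10 and 0.08. SRSF7 passed without siBAP18 replicate 2 (edgeR adjusted p = 0.0351) and SRSF3 without siBAP18 replicate 3 (edgeR adjusted p = 0.0396).

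**Figure D2:**
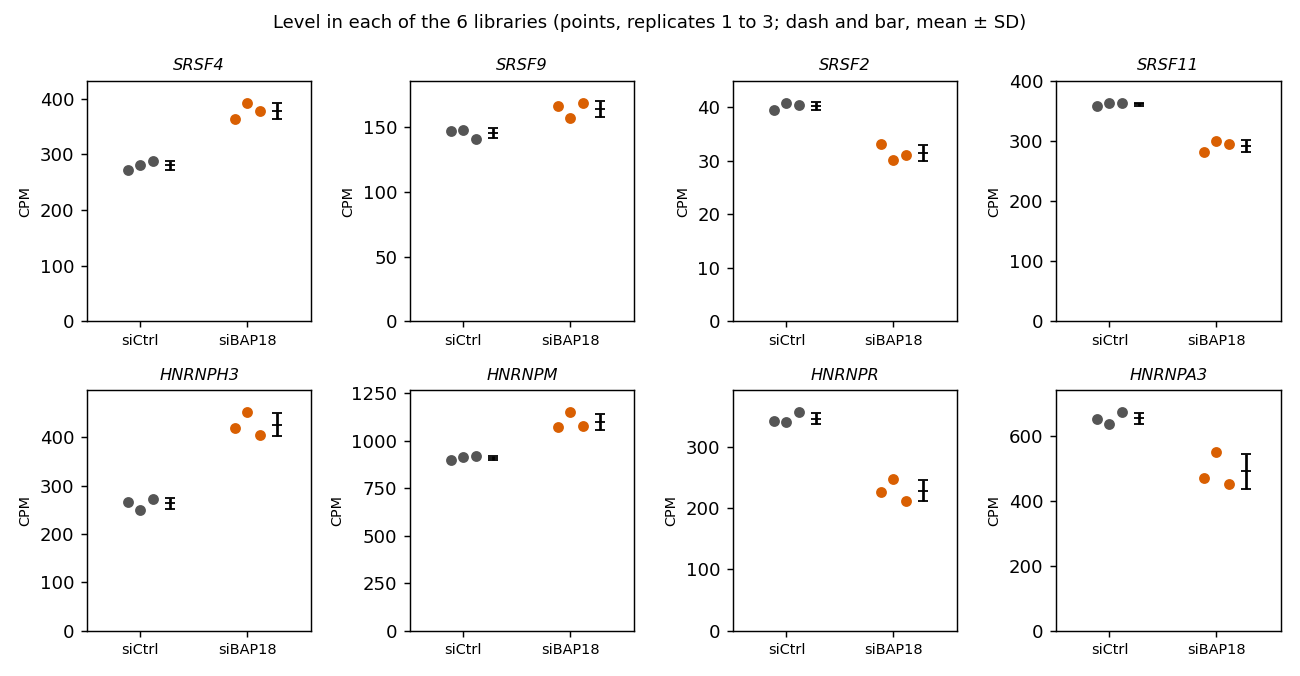
Level in CPM (vertical axis, from 0) of 4 SR genes and 4 hnRNP genes in the 3 siCtrl and 3 siBAP18 libraries, with points for the libraries and a dash and bar for the mean ± SD. The 8 genes were picked for display, and in all of them the groups did not overlap, as in 56.6% of all genes tested. SRSF4, SRSF9, HNRNPH3 and HNRNPM were higher and SRSF2, SRSF11, HNRNPR and HNRNPA3 lower in siBAP18. The call of SRSF9 was lost in 5 of 17 alternatives.

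Among the hnRNP genes, the A/B proteins were led by HNRNPA1, and HNRNPA1, HNRNPA2B1, HNRNPA3 and HNRNPA1L2 fell. HNRNPA1, which silences exons and opposes SRSF1, was the most abundant member of either family, at 1015 ± 46.3 RPKM (SD, n = 3) in siCtrl cells. It had 5069, 4994 and 5484 CPM in the siCtrl libraries and 4200, 4225 and 4012 CPM in the siBAP18 libraries. All siBAP18 libraries lay below all siCtrl libraries, and the log2 fold change was −0.32 (standard error 0.0681, edgeR adjusted p = 3.18e-04). HNRNPA2B1, which also sorts RNAs for transport, fell by 0.35, from 1888 ± 66.3 to 1483 ± 106 CPM (SD, n = 3, edgeR adjusted p = 1.67e-04). The count ratio of HNRNPA1 to HNRNPA2B1 was 2.74 ± 0.0505 in siCtrl and 2.80 ± 0.155 in siBAP18 libraries, which overlapped.

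HNRNPA3 had 651, 638 and 673 CPM in the siCtrl libraries and 469, 552 and 451 CPM in the siBAP18 libraries. The groups did not overlap, with siBAP18 replicate 2 closest to the controls, and the log2 fold change was −0.41 (standard error 0.0738, edgeR adjusted p = 4.33e-05). HNRNPA1L2, a copy of HNRNPA1 with nearly the same sequence, fell by 0.26 and lost its call without siCtrl replicate 3 (edgeR adjusted p = 0.0550). Reads of the copies HNRNPA1L2 and HNRNPCL1 to HNRNPCL4 can belong to their parent genes, so their values are uncertain. HNRNPA0 and HNRNPAB had log2 fold changes of 0.02 and −0.07 and did not pass.

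The F/H group binds runs of G in RNA and split by member. HNRNPH1 and HNRNPH2 each fell by 0.29 (edgeR adjusted p of 0.00186 and 0.00176) and HNRNPF fell by 0.27 (edgeR adjusted p = 0.00200). HNRNPH3, the shorter relative that lacks one of the RNA-binding domains of the others, showed the largest rise of all members. It had 266, 250 and 273 CPM in the siCtrl libraries and 420, 451 and 405 CPM in the siBAP18 libraries. The lowest siBAP18 library was far above the highest siCtrl library. The rise was 1.62-fold, a log2 fold change of 0.69 (standard error 0.0680, edgeR adjusted p = 5.23e-09), which put HNRNPH3 at the 90.4th percentile of all genes tested.

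In each library, HNRNPH3 had 0.512, 0.489 and 0.503 counts for each count of HNRNPH1 in siCtrl replicates 1, 2 and 3 and 0.967, 0.958 and 1.06 in the siBAP18 replicates. The count ratio thus rose 1.98-fold, and this pair was chosen after the values were seen. Counts are not corrected for length, and HNRNPH1 is listed at 9480 bases and HNRNPH3 at 5373. Per length, HNRNPH3 had a mean of 48.8 RPKM in siCtrl and 79.3 RPKM in siBAP18 libraries. HNRNPH1 had means of 55.2 RPKM in siCtrl and 45.5 RPKM in siBAP18 libraries. HNRNPH2 shares 16.3% of its exon bases with the readthrough gene RPL36A-HNRNPH2, which had a log2 fold change of −0.06 (edgeR adjusted p = 0.482).

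HNRNPR, an RNA-binding protein of the nucleus and of neuronal processes and a relative of SYNCRIP, showed the largest fall among the hnRNP genes. It had 341, 340 and 356 CPM in the siCtrl libraries and 227, 247 and 212 CPM in the siBAP18 libraries. The groups were far apart, and the log2 fold change was −0.60 (standard error 0.0687, edgeR adjusted p = 7.33e-08). Among all genes tested, 26.5% passed with an absolute log2 fold change of at least 0.5 (13.9% lower, 12.6% higher), as HNRNPR, HNRNPH3 and SRSF12 did. HNRNPU, a scaffold protein that ties RNA to chromatin, fell by 0.20 (edgeR adjusted p = 0.0237). That call was lost in 8 of 17 alternatives, and 25.8% of its exon bases lie opposite COX20, which fell by 0.45 (edgeR adjusted p = 1.15e-05).

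Beside HNRNPH3, the hnRNP genes that rose were HNRNPC, HNRNPM, HNRNPL and HNRNPDL. HNRNPC, which binds U-rich tracts of nascent transcripts, had 888, 886 and 899 CPM in the siCtrl libraries and 1045, 1050 and 1076 CPM in the siBAP18 libraries, without overlap (log2 fold change 0.25, standard error 0.0642, edgeR adjusted p = 0.00239). HNRNPM, a splicing repressor, had 896, 912 and 918 CPM in siCtrl and 1071, 1148 and 1075 CPM in siBAP18 libraries (log2 fold change 0.27, standard error 0.0655, edgeR adjusted p = 0.00115). Every siBAP18 library of both genes was above every siCtrl library. HNRNPL, which binds CA repeats, rose by 0.22 (edgeR adjusted p = 0.00670) and did not pass without siBAP18 replicate 1 (edgeR adjusted p = 0.0539). HNRNPDL rose by 0.17 (edgeR adjusted p = 0.0386), although siBAP18 replicate 3 lay within the siCtrl range and 8 of 17 alternatives ended the call.

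The remaining hnRNP genes did not pass. They include HNRNPK, a poly(C)-binding protein, HNRNPD, also known as AUF1, HNRNPLL, HNRNPUL1, HNRNPUL2, HNRNPCL1 and HNRNPCL2, and their log2 fold changes ran from −0.14 for HNRNPUL2 to 0.30 for HNRNPCL2. A missed threshold does not show that they were unaffected, and HNRNPUL1, at 0.13 (edgeR adjusted p = 0.0955), passed in 7 of 17 alternatives. HNRNPUL2 shares 44.5% of its exon bases with the readthrough gene HNRNPUL2-BSCL2, and both had nearly the same counts in each library, 25005 and 24494 in siCtrl replicate 1. HNRNPCL3 had 0 to 4 and HNRNPCL4 had 2 to 5 counts per library, too few to be tested.

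**Figure D3:**
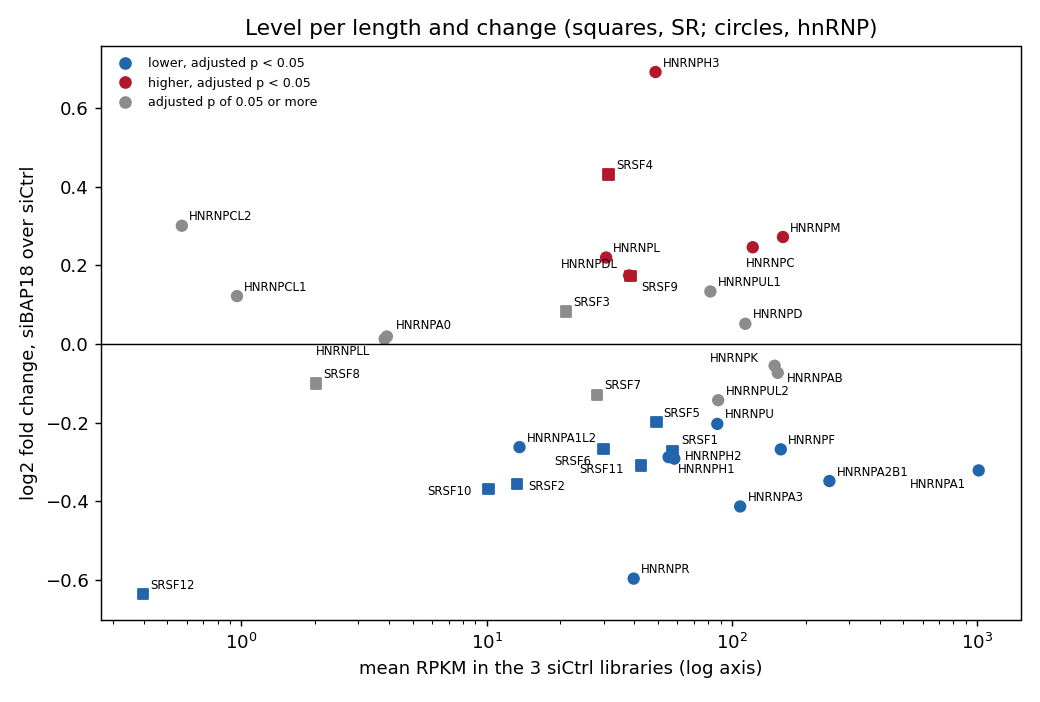
Mean RPKM in the 3 siCtrl libraries (horizontal log axis) against the log2 fold change (vertical axis) for the 35 members tested, with squares for SR genes, circles for hnRNP genes and colors for the edgeR call. Members lower in siBAP18 run from SRSF12, at 0.398 RPKM, to HNRNPA1, at 1015 RPKM.

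Summed over the family, the hnRNP transcripts took a smaller part of the library after knockdown. Their summed level was 15749, 15593 and 16362 CPM in the siCtrl libraries and 14332, 14947 and 13862 CPM in the siBAP18 libraries, without overlap. That is 1.59% ± 0.0329 of all counts in siCtrl and 1.44% ± 0.104 in siBAP18 cells (SD, n = 3). Without HNRNPA1 the groups overlapped, at 10680, 10599 and 10879 CPM against 10131, 10723 and 9850 CPM. The summed SR level was 1777, 1827 and 1800 CPM in siCtrl and 1729, 1778 and 1658 CPM in siBAP18 libraries, which also overlapped.

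The siBAP18 libraries did not move by equal amounts. Replicate 3 of siBAP18, the library with the fewest counts, was the lowest of its group in 22 of the 35 members tested (62.9%), against 39.5% of all genes, and replicate 2 was the highest in 20 of them (57.1%), against 36.2% of all genes. The median coefficient of variation over the members was 2.71% in siCtrl and 5.64% in siBAP18 libraries. Over the 4624 genes whose average log2 CPM reached 5 it was 3.12% and 6.96%, so the wider spread in siBAP18 was not a feature of the members alone. Despite it, the groups did not overlap in 27 of 35 members, 19 lower and 8 higher. In all genes tested the groups did not overlap in 56.6%, 29.0% lower and 27.6% higher.

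**Figure D4:**
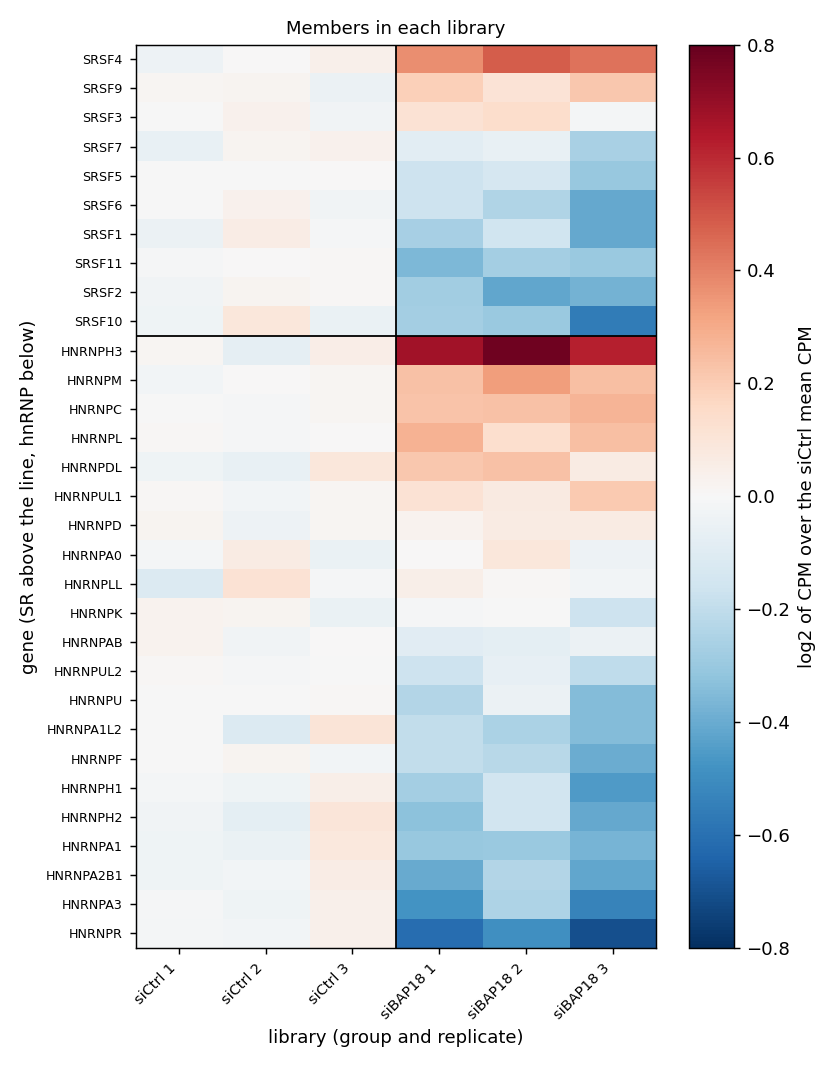
Log2 of the CPM over the siCtrl mean CPM (color, from −0.8 to 0.8) for the 31 members whose average log2 CPM reached 3 (vertical axis) in each of the 6 libraries (horizontal axis). The siCtrl columns stay near 0, and most lower members are palest in siBAP18 replicate 2 and darkest in siBAP18 replicate 3.

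The members lie on 16 chromosomes, 9 of them on chromosome 1. Their annotation in GENCODE 29 is rich in transcripts that do not make the full protein. All 12 SR genes and 13 of the 23 hnRNP genes tested have at least 1 transcript annotated as a target of NMD, 71.4% of the members against 41.6% of 13854 protein-coding genes tested. Transcripts with a retained intron are annotated in 65.7% of the members and 56.2% of those genes. Of the 25 members with an NMD transcript, 12 were lower and 6 were higher, and of the 10 without one, 4 were lower and 1 was higher, beside 25.1% lower and 24.5% higher over all genes. The median log2 fold change was −0.13 with and −0.11 without an NMD transcript, and the difference was not tested. Counts per gene add all transcripts of a gene, so a change in productive transcripts and a change in NMD targets cannot be told apart here. In 17 members some exon bases overlap another gene, over 10% of them in 6 members.

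Promoter sequences are shown for members whose call held in every alternative fit, leaving aside the threshold on the log2 fold change. Their window before the RefSeq start (GRCh38.p14) also had at least 100 bases before the first exon of the gene in the deposited table. Those bases met no exon of another gene. Up to 2 of the largest rises and 2 of the largest falls were taken. This left SRSF4 and HNRNPC, which rose, and HNRNPR, which fell, a choice made after the values were seen. SRSF11, which fell and has 236 such bases, was left out because they overlap an exon of LRRC40. The runs read 5′ to 3′ on the strand of the gene and end where the first exon begins. SRSF4 is chr1:29181988-29182150, HNRNPC is chr14:21269495-21269692 and HNRNPR is chr1:23344337-23344534, all on the − strand. Capitals mark matches, on either strand, to 8 short motifs. The motifs are the CCAAT box (CCAAT), the GC box (GGGCGG), the ETS core (CCGGAA), a first E2F form (TTCCCGC), a second E2F form (TTGGCGC), the YY1 core (ATGGCGG), AP-1 (TGACTCA) and the TATA box (TATAAA), and overlapping matches were each counted.
SRSF4: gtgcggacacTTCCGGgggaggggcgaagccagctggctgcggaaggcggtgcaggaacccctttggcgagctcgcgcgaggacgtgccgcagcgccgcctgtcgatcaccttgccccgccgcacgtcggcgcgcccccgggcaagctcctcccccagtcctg
HNRNPC: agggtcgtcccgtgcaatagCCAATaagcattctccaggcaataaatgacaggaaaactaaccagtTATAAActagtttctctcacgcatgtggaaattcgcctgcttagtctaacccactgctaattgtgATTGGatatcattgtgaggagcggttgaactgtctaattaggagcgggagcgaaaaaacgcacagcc
HNRNPR: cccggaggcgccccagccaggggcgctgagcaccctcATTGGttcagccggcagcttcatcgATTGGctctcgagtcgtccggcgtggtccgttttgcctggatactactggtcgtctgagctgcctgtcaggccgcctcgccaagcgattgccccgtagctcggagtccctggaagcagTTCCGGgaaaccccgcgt

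GC content was 74.2% in the SRSF4 run, 65.7% in that of HNRNPR and 44.9% in that of HNRNPC. The HNRNPR run holds 2 CCAAT boxes and 1 ETS core, the HNRNPC run 2 CCAAT boxes and 1 TATA box, and the SRSF4 run 1 ETS core. HNRNPC and HNRNPR, which moved in opposite directions, thus both hold 2 CCAAT boxes, and SRSF4 and HNRNPR, also opposite, both hold an ETS core.

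Over the whole 250 bases before each RefSeq start, sequences were matched by symbol for 33 of the 35 members tested (SRSF2 and HNRNPA1 were not matched) and for 27305 genes in all, 11493 of them tested here. A gene was counted once if any of its windows held the motif. The number of windows per gene was not compared between members and other genes. CCAAT was present in 20 of 33 members (60.6%), 37.0% of all genes and 40.8% of genes tested. TTCCCGC was present in 11 of 33 members (33.3%), 6.66% of all genes and 10.4% of genes tested, and the 11 members are HNRNPA2B1, HNRNPDL, HNRNPF, HNRNPH1, HNRNPK, HNRNPL, HNRNPLL, HNRNPUL1, SRSF10, SRSF12 and SRSF4. They comprise 5 of 14 members that were lower and 3 of 7 that were higher, so the motif was found on both sides. GGGCGG was present in 63.6% of members, 46.2% of all genes and 71.5% of genes tested, CCGGAA in 24.2%, 17.2% and 27.7%, TATAAA in 18.2%, 13.1% and 8.50%, and ATGGCGG in 3.03%, 3.44% and 4.98%. No member window held TTGGCGC or TGACTCA, which 3.11% and 5.19% of all genes and 4.87% and 4.41% of genes tested did. The median GC content was 65% in the members and 64% in genes tested. These matches are descriptions of letters in a window and were not tested as binding sites.

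Other parts of the splicing pathway were read from 8 lists, whose counts stand beside 25.1% of all genes lower and 24.5% higher. SR proteins are phosphorylated in the cytoplasm for import and in the nucleus for release from speckles. Of 13 kinases, phosphatase subunits and the importin of SR proteins, 5 were lower and 3 were higher. SRPK1, the cytoplasmic SR kinase, had 47.3, 51.7 and 43.2 CPM in siCtrl and 32.8, 36.9 and 30.3 CPM in siBAP18 libraries, without overlap, and fell by 0.50 (edgeR adjusted p = 9.98e-06). PRPF4B, a nuclear kinase of the spliceosome, fell by 0.63 (edgeR adjusted p = 1.54e-08), and PPP1CC, a catalytic subunit of protein phosphatase 1, fell by 0.65 (edgeR adjusted p = 2.08e-07). The nuclear kinases CLK3 and CLK4 rose by 0.34 and 0.22, while CLK2 fell by 0.18. The median log2 fold change of the list was 0.12.

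Of 28 SR-related proteins, 6 were lower and 11 were higher, with a median log2 fold change of 0.09. LUC7L3, which works with the U1 snRNP, fell by 0.71, from 602 ± 4.61 to 367 ± 24.0 CPM (SD, n = 3, edgeR adjusted p = 2.93e-09), and SCAF11 fell by 0.66. CLASRP and CCNL1, a cyclin of splicing speckles, both rose by 0.74. TRA2A and TRA2B, exon activators close to the SR family, rose by 0.22 and 0.27. Of 21 hnRNP proteins with other names, 5 were lower and 6 were higher, with a median of −0.09. PTBP3, a pyrimidine-tract repressor, fell by 0.70 (edgeR adjusted p = 1.92e-08), MATR3, a nuclear matrix protein, fell by 0.60 (edgeR adjusted p = 2.69e-08) and SLTM fell by 0.40, while PTBP1 rose by 0.17. SYNCRIP, the relative of HNRNPR, fell by 0.19.

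Among genes of the spliceosome core, rises outnumbered falls. Of 19 genes for recognition of the branch point and 3′ splice site, 15 were higher and 3 were lower, with a median log2 fold change of 0.26, beside 24.5% of all genes higher. PHF5A and SF3B2, both of the SF3b complex, rose by 0.83 and 0.76, and ZRSR2, which acts on minor introns, rose by 0.66. SF3B2 had 749, 736 and 770 CPM in siCtrl and 1285, 1190 and 1337 CPM in siBAP18 libraries, without overlap. In the same list SF3B1, DDX46 and DHX15 fell by 0.31, 0.50 and 0.63. U2AF2 was the one gene that did not pass.

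Of 35 genes of the tri-snRNP, the Prp19 complex and the splicing helicases, 19 were higher and 11 were lower, with a median of 0.22. PRPF3 and SART1 of the tri-snRNP had the largest rises, at 1.00 and 0.94, and PRPF6 rose by 0.71. BCAS2, of the Prp19 complex, had 11.4, 11.6 and 9.88 CPM in siCtrl and 5.29, 5.80 and 3.80 CPM in siBAP18 libraries and fell by 1.13 (standard error 0.122, edgeR adjusted p = 2.66e-08). Of 25 snRNP and Sm or LSm proteins, 9 were higher and 3 were lower, with a median of 0.10, led by SNRPA1 and SNRPD2, which rose by 0.61 and 0.33, and SNRNP48, which fell by 0.46.

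Of 17 genes of the exon junction complex and NMD, 6 were lower and 6 were higher, with a median of 0.09. UPF3B and UPF2 fell by 0.58 and 0.40, and SMG9 rose by 0.43. Of 26 other regulators of alternative splicing, 21 could be tested, and 8 were lower and 5 were higher, with a median of −0.25. RBFOX3, QKI and TIA1 fell by 0.96, 0.77 and 0.68. Across the lists, 121 of 179 genes tested passed (67.6%), beside 49.6% of all genes. BCAS2 and PRPF3 were the 2 that passed with an absolute log2 fold change over 1 (1.12%), beside 8.46% of all genes. The listed genes were more abundant, with medians of average log2 CPM from 4.88 to 7.57 by list, beside 2.80 over all genes tested. Genes of matched abundance were not compared, and differences between lists were not tested.

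**Figure D5:**
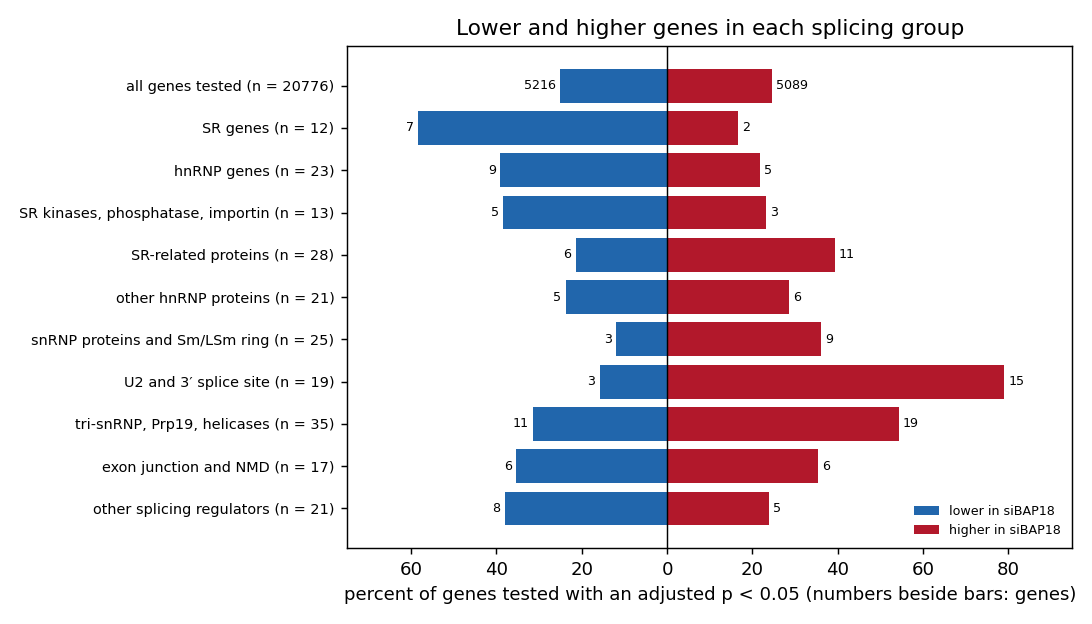
Percent of genes tested with an adjusted p under 0.05 (horizontal axis) that were lower (left of 0) or higher (right of 0) in siBAP18, for all genes, the SR and hnRNP genes and 8 lists of other splicing genes (vertical axis), with numbers of genes beside the bars. The bar to the left is the longer one for SR and hnRNP genes, at 7 and 9 genes. It is also longer for SR kinases, phosphatase and importin (5 lower, 3 higher) and other splicing regulators (8 lower, 5 higher). Among the lists where the bar to the right is longer are 3′ splice site genes, at 15 genes.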

How the data were processed

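Poly(A) RNA of 6 A549 cultures was sequenced as stranded paired-end libraries. The authors deposited the number of reads per gene as whole-number counts, not normalized, and a second table in RPKM. Recomputing the RPKM from the counts, the listed gene lengths and the column totals gave the deposited values. The aligner, the counting program, its version and its strand setting are not given in the sources used here. The submitters' processing notes list the builds hg38 and GRCm38, and the exon positions match GRCh38 (GENCODE 29 gave the same span for 33 of 37 members). Of counts from 1 to 9, 76.05% were even, as when both mates of a fragment are counted. Counting error taken from the counts alone would then be understated. What this did to the standard errors, which also use the spread of replicates, was not tested.

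The counts of all genes were fitted in edgeR 4.0.16 under R 4.3.3 (filterByExpr, TMM, quasi-likelihood F test, Benjamini-Hochberg adjustment over 20776 genes), with an adjusted p under 0.05 as the call. Standard errors come from the fold change and its F value. Alternatives used DESeq2 1.42.0, limma 3.58.1 on log2(RPKM + 1) and log2(RPKM + 0.1) of genes with a mean RPKM of at least 0.5, upper-quartile scaling, total counts, edgeR's likelihood ratio test, a minimum of 10 counts per library, no minimum at all, a replicate block, each library left out and the study's added threshold of an absolute log2 fold change over 1. Steps were tested on simulated data. No column of values was left without a sample.

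Members and lists were chosen with earlier results of these data known. Values in every library were to be given for C17orf49, for members past the call with an absolute log2 fold change of at least 0.5 and for the most abundant member of each family, and further members were added after their values were seen. In each list, the 3 genes with the smallest adjusted p and the 2 largest changes at an average log2 CPM of at least 1 were named, and other genes of the lists were added after their values were seen. Names ending in P and digits (106 pseudogenes) held 1.37% to 1.56% of the counts of the members, and pseudogenes of HNRNPA1 held 2.87% to 3.37% of the counts of HNRNPA1.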

Additional observations from a re-analysis of the deposited data

How the results depend on the processing

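Of the 23 members that passed, 10 kept their call in every alternative fit, namely SRSF2, SRSF11, SRSF4, HNRNPR, HNRNPA3, HNRNPA2B1, HNRNPA1, HNRNPC, HNRNPM and HNRNPH3, and none of the 23 changed direction. Under limma on unfiltered log2(RPKM + 1), the lower members dropped from 7 to 2 among SR genes and from 9 to 4 among hnRNP genes, and without a filter on low counts 1 SR gene was higher in place of 2. The cause was not tested. Requiring an absolute log2 fold change over 1 left 0 SR genes and 0 hnRNP genes in either direction and 2 genes of the related lists in place of 121. Among members without exon overlap, 4 hnRNP genes were lower, and, in alternatives added after seeing the data, 0 SR genes and 2 hnRNP genes were higher, counts that are smaller because fewer genes were counted.

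With each library left out in turn, 5 to 8 SR genes were lower and 1 to 3 were higher, 7 to 10 hnRNP genes were lower and 3 to 5 were higher, and 94 to 131 genes of the related lists passed. The count of 1 higher SR gene was reached without siBAP18 replicate 1 and without any one of the siCtrl replicates, and the count of 3 higher hnRNP genes without siBAP18 replicate 1. The log2 fold change of C17orf49 ran from −2.72 to −2.60. The sign of HNRNPLL, which did not pass, turned to −0.0024 with no filter and ran from −0.045 to 0.069 with libraries left out, and that of HNRNPA0, which did not pass, ran from −0.017 to 0.049.

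The labels number the replicates but do not state whether libraries of the same number were paired. Residuals of the same number correlated at 0.0668, 0.227 and 0.107, all positive but not all above 0.1. These values cannot settle whether the cultures were paired, and the main fit did not pair them. Over all genes tested, 10803 passed with a replicate block and 10305 in the main fit. With a replicate block, 7 SR genes were lower and 2 higher, 10 hnRNP genes were lower and 6 higher, and 129 genes of the related lists passed. Other scalings and filters moved the median log2 fold change of all genes by at most 0.016. Depth limits SRSF12 and the HNRNPCL genes, whose counts were low.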
